A study of Homo sapiens with 5 samples.

Results

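The hypoxia-inducible factor (HIF) system was examined in NCI-H209 cells, an established human small-cell lung cancer (SCLC) line, as 10 genes chosen by name out of 64837 counted entries. They encode the oxygen-regulated alpha subunits HIF1A, EPAS1 and HIF3A, the beta subunits ARNT and ARNT2, the prolyl hydroxylases EGLN1, EGLN2 and EGLN3, the ubiquitin ligase component VHL and the asparaginyl hydroxylase HIF1AN. The control group consisted of 3 untreated cultures, and the co-cultured group of 2 cultures kept for 24 h with human brain microvascular endothelial cells (HBMECs). The HBMECs sat on a porous membrane above the tumor cells, so that medium but not direct contact was shared, and RNA of the tumor cells alone was collected. Every library came from a single tumor line without genetic modification, and no culture of the tumor cells with an insert lacking HBMECs, or under low oxygen, was analysed here. The labels do not say that replicates were grown on separate occasions, so p-values measure the spread between these libraries only.

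In cells with enough oxygen, the EGLN enzymes use oxygen to hydroxylate prolines of the HIF alpha subunits, VHL binds the hydroxylated protein, and the alpha subunit is degraded. HIF1AN hydroxylates an asparagine near the end of the alpha subunit and so blocks its coactivators. When oxygen falls, the alpha subunit escapes both enzymes, pairs with ARNT or ARNT2 and switches on its target genes, EGLN1 and EGLN3 being well known among them. Much of this control acts on the proteins, which RNA counts do not measure.

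The proline motif that EGLN enzymes recognise is shown first, because it is the link between both families of genes and differs in number among the alpha subunits. Stretches that encode leucine-alanine-proline with a further leucine before it were searched in the principal GENCODE release 29 transcript of each gene. Capitals mark the codon of the proline.
HIF1A codons 395 to 404, proline codon 402: gatgctttaactttgctggccCCAgccgct
HIF1A codons 557 to 566, proline codon 564: ttagacttggagatgttagctCCCtatatc
EPAS1 codons 398 to 407, proline codon 405: gaggagctggcccagctggctCCCacccca
EPAS1 codons 524 to 533, proline codon 531: ctggacttggagacactggcaCCCtatatc
HIF3A codons 485 to 494, proline codon 492: ctggatttggagatgctggccCCCtacatc
HIF1A and EPAS1 each held 2 such stretches, and HIF3A held 1.

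RNA of 4 of the 10 genes was higher after co-culture, that of a pair of alpha subunits and a pair of prolyl hydroxylases. HIF1A was 2.12-fold, EPAS1 2.79-fold, EGLN1 2.84-fold and EGLN3 4.82-fold higher in co-cultured than in control cells. The other alpha subunit, both beta subunits, EGLN2, VHL and HIF1AN did not pass the test, and 0 of the 10 passed it in the lower direction. All 10 genes were kept by the filter on low counts. Groups were compared by the quasi-likelihood test of edgeR, with p-values adjusted after Benjamini-Hochberg over the 20360 genes kept, and a gene was called at an adjusted p under 0.05. Of all genes tested, 18.4% were called higher and 15.0% lower, so that a call alone was common in these libraries. At the stricter criterion for differentially expressed genes (DEGs), more than a 2-fold change either way at an unadjusted p under 0.05, the same 4 genes passed, beside 5.44% of all genes in the higher and 5.01% in the lower direction. The split of calls over all genes depended on the scaling, with 3750 higher and 3059 lower after TMM normalization and 3076 and 3929 after upper-quartile normalization, while 4 members were called higher under both.

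**Figure D1:**
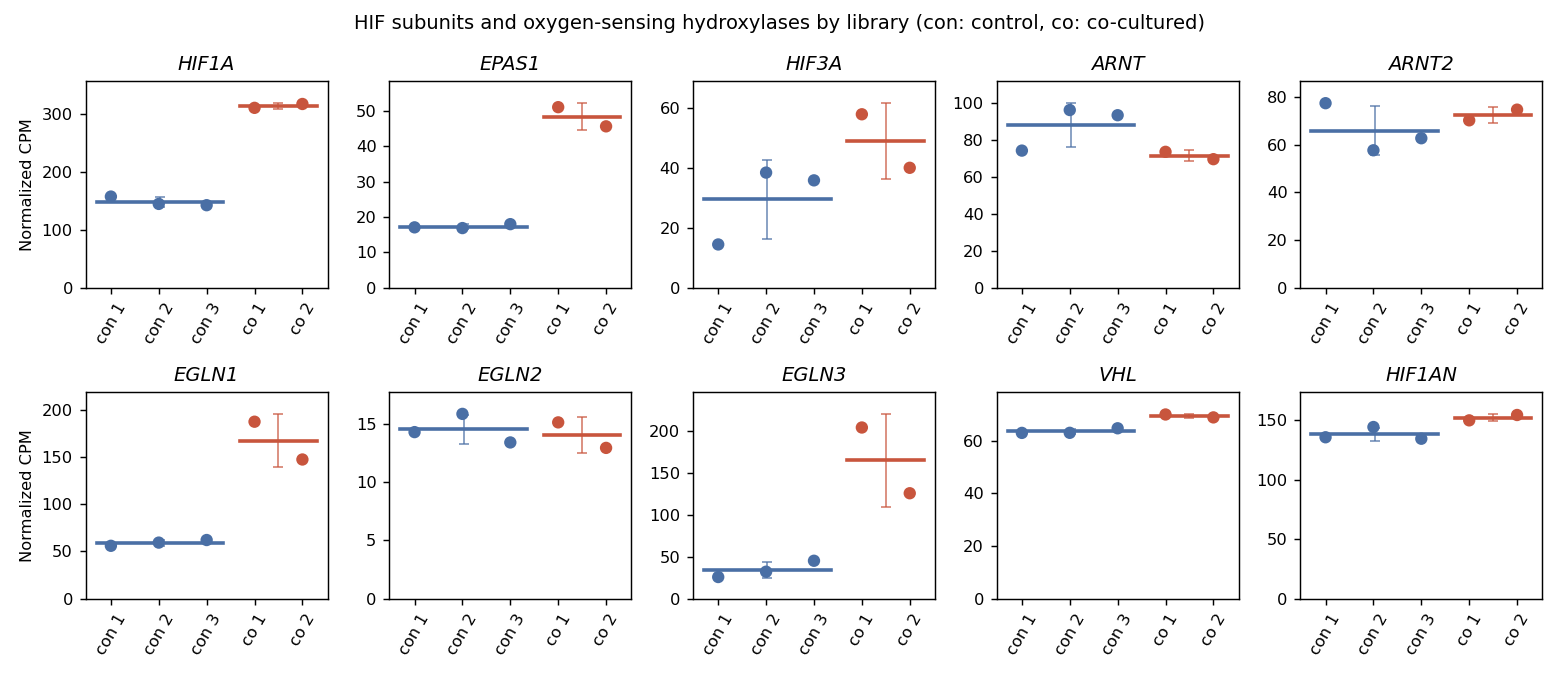
Counts scaled to a common library size (CPM, y axis, from 0) of the 10 genes in each of the 5 libraries (x axis; con, control; co, co-cultured), with group means as lines and SD as bars. HIF1A, EPAS1, EGLN1 and EGLN3 stood well above control in both co-cultured libraries, and control replicate 1 stood apart for HIF3A, ARNT and ARNT2.

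Total counts on genes ran from 17317045 to 19157348 in the control libraries and were 15457071 and 18918787 in the co-cultured ones. The share of reads left unmapped was 8.13% to 8.48% in control against 15.9% and 16.8% in co-cultured libraries. Reads that mapped but were assigned to no annotated gene made up 47.3%, 51.2% and 49.6% in control against 40.1% and 40.8% in co-cultured libraries, leaving aside ambiguous ones. The part of these differences in the results below was not tested. Control replicate 1 differed most from its group: the chi-square of its counts, divided by the degrees of freedom, was 11.2 and 11.3 against the other control libraries and 4.31 between those. Of 12 neuroendocrine markers, which SCLC cells express, 11 could be tested, and INSM1 alone had 8606 to 11970 counts per library, while CHGA had at most 1. A higher level in bulk RNA cannot be told apart from a larger share of cells that express the gene.

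HIF1A, the alpha subunit found in most cell types, lies on chromosome 14 from 61695513 to 61748259 (GRCh38, plus strand). Its CPM was 157, 145 and 143 in control against 311 and 317 in co-cultured libraries. The control libraries lay close together and far below both co-cultured ones. The log2 fold change was 1.08 (standard error 0.078, adjusted p = 4.34e-05), and its 95% interval allowed a 1.87- to 2.39-fold rise. Across 12 alternative settings the log2 fold change stayed between 1.004 and 1.13. Of the antisense genes at this locus, HIF1A-AS1 had 2 or 3 counts on its own strand in each library and HIF1A-AS2 had 0 in all 5.

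EPAS1, which encodes HIF-2 alpha, an alpha subunit prominent in endothelium and in some tumors, lies on chromosome 2 from 46293667 to 46386703 (plus strand). It went from 17.1, 16.9 and 18.0 CPM in control to 51.0 and 45.6 CPM in co-cultured libraries, with no overlap. The log2 fold change was 1.48 (standard error 0.097, adjusted p = 2.95e-05), equal to a 2.40- to 3.25-fold rise at the 95% interval. Because HBMECs were in the same wells, 18 endothelial markers were counted beside it. Their summed level was 10.1 to 19.6 CPM in control against 13.6 CPM in each co-cultured library. Of these markers 8 had at most 3 counts in every library, with PLVAP, MMRN1 and ECSCR at 0 throughout, and 8 were tested. VWF, the most abundant, had 4.15 to 8.45 CPM in control against 4.76 and 5.95 CPM in co-cultured libraries, and ERG and EGFL7 also overlapped between the groups. CDH5 had 4 to 11 counts in control against 7 and 11 in co-cultured libraries. PECAM1 had 14, 10 and 3 counts in control against 18 and 11, KDR 37, 27 and 2 against 12 and 4, and TEK 31, 24 and 0 against 6 and 3. Of the tested markers not called, PECAM1, CDH5 and EGFL7 had log2 fold changes above 0, and KDR, TEK, VWF and ERG below 0. ESAM, an adhesion protein of endothelial junctions, was the only marker called, with 3, 4 and 6 counts in control against 21 and 14 in co-cultured libraries (adjusted p = 0.00666), and SOX18, not tested, had 4, 5 and 10 counts against 11 and 8, without overlap in CPM. The part of endothelial RNA in the EPAS1 result was not tested.

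HIF3A, the alpha subunit of which several variants restrain the others, lies on chromosome 19 from 46297046 to 46343433 (plus strand). Its CPM was 14.5, 38.4 and 35.8 in control against 57.9 and 40.0 in co-cultured libraries. The groups did not overlap, but the gap between them was only 1.60 CPM, and control replicate 1 was far below the other controls. The log2 fold change of 0.73 did not pass the test (standard error 0.33, adjusted p = 0.119), and its interval ran from 0.991-fold to 2.78-fold. Without control replicate 1 the estimate fell to 0.41 but passed (adjusted p = 0.0110), and without co-cultured replicate 1 it fell to 0.44 and did not pass (adjusted p = 0.543).

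HIF1A was lower relative to EPAS1 after co-culture, although both rose. The log2 ratio of HIF1A to EPAS1 counts, which does not depend on library scaling, was 3.21, 3.10 and 2.99 in control against 2.61 and 2.80 in co-cultured libraries. The groups did not overlap, and no test was run on this ratio. Per kilobase of exon, HIF1A still exceeded EPAS1 12.5-fold in control against 9.50-fold in co-cultured cells. HIF1A held 83.4% ± 4.48 (SD, n = 3) of the per-length level of the alpha subunits in control against 83.4% ± 2.46 (SD, n = 2) in co-cultured cells, and EPAS1 went from 6.67% ± 0.281 to 8.79% ± 0.570.

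The beta subunits, which the alpha subunits need to bind DNA and which oxygen does not destabilize, were not called. ARNT, on chromosome 1 from 150809705 to 150876768 (minus strand), had 74.1, 96.0 and 93.2 CPM in control against 73.5 and 69.5 CPM in co-cultured libraries. The groups were separated by 0.663 CPM only, since control replicate 1 lay next to the co-cultured values. Its log2 fold change was -0.30 (standard error 0.11, unadjusted p = 0.0285, adjusted p = 0.0743). Without control replicate 1 it was -0.40 and passed (adjusted p = 6.69e-05), and it also passed after upper-quartile normalization, at -0.38 (adjusted p = 0.0399). ARNT2, a homologue strongest in brain and kidney, lies on chromosome 15 from 80404350 to 80597937 (plus strand) and had 77.4, 57.7 and 62.7 CPM in control against 70.2 and 74.7 CPM in co-cultured libraries. The groups overlapped, the log2 fold change was 0.14 (adjusted p = 0.416), and its interval allowed 0.911- to 1.32-fold. Without control replicate 1 the log2 fold change was 0.27 and passed (adjusted p = 0.00365), and without control replicate 2 it was 0.05 and did not (adjusted p = 0.773). The log2 ratio of ARNT to ARNT2 was -0.06, 0.74 and 0.57 in control against 0.06 and -0.10 in co-cultured libraries, so that the groups overlapped through control replicate 1.

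EGLN1, the prolyl hydroxylase that does most to keep HIF1A low in normal oxygen, lies on chromosome 1 from 231363751 to 231425044 (minus strand). Its CPM was 55.8, 59.2 and 62.0 in control against 187 and 147 in co-cultured libraries. Both co-cultured values were more than double every control value, and co-cultured replicate 1 was the higher of the pair. The log2 fold change was 1.504 (standard error 0.11, adjusted p = 4.14e-05), with an interval of 2.40- to 3.35-fold. Reads on the opposite strand, where the annotation has no gene, numbered 78, 140 and 125 in control against 71 and 55 in co-cultured libraries and did not rise with it.

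EGLN3, the most hypoxia-inducible of the prolyl hydroxylases, lies on chromosome 14 from 33924231 to 34462774 (minus strand) and had the largest change of the 10 genes. Its CPM was 25.6, 32.0 and 45.0 in control against 204 and 126 in co-cultured libraries. The libraries varied more than for EGLN1 in both groups, yet the lower co-cultured value was far above the highest control value. The log2 fold change was 2.27 (standard error 0.24, adjusted p = 0.000208), with an interval of 3.33- to 6.96-fold. When each library was left out in turn it ran from 1.88, without co-cultured replicate 1, to 2.58, without co-cultured replicate 2. The antisense gene EGLN3-AS1 had at most 1 count in every library.

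EGLN2, a prolyl hydroxylase that low oxygen is not known to induce, lies on chromosome 19 from 40798996 to 40808433 (plus strand) and had 14.3, 15.9 and 13.4 CPM in control against 15.1 and 12.9 CPM in co-cultured libraries. The groups overlapped, the log2 fold change was -0.05 (adjusted p = 0.819), and the interval allowed 0.786- to 1.19-fold. Its count is uncertain, because 2012 of its 6577 exon bases, or 30.6%, are shared on the same strand with other genes, the readthrough gene RAB4B-EGLN2 among them, and reads there are assigned to no gene. RAB4B-EGLN2 itself had 0 counts in all 5 libraries, and RAB4B had 17 to 24. Reads on exons that the readthrough gene shares with EGLN2 or RAB4B are assigned to no gene. These counts therefore do not show the level of RAB4B-EGLN2 or of RAB4B.

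**Figure D2:**
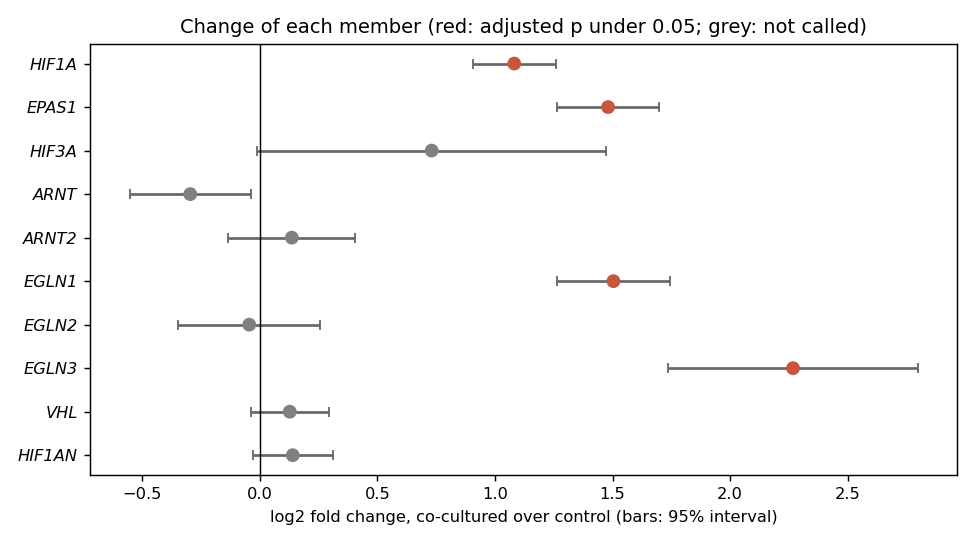
Log2 fold change, co-cultured relative to control (x axis), for each of the 10 genes (y axis), with the 95% interval of edgeR's fit as bars. The intervals of HIF1A, EPAS1, EGLN1 and EGLN3 lay wholly above 0.9 on the log2 scale, and those of HIF3A, ARNT2, EGLN2, VHL and HIF1AN included 0. That of ARNT, not called at the adjusted p, lay below 0, from -0.554 to -0.039.

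The prolyl hydroxylases were also compared with each other, as values without a test. The log2 ratio of EGLN1 to EGLN3 was 0.82 ± 0.34 (SD, n = 3) in control against 0.05 ± 0.25 (SD, n = 2) in co-cultured cells, with every co-cultured library below every control library. EGLN1 over EGLN2 went from 2.02 ± 0.16 to 3.57 ± 0.086 and EGLN3 over EGLN2 from 1.20 ± 0.48 to 3.51 ± 0.34 on the same log2 scale, both without overlap. As shares of the per-length level of these 3 enzymes, EGLN3 went from 28.8% ± 5.39 to 45.6% ± 4.46, EGLN1 was at 51.1% ± 2.62 and 47.9% ± 3.60, and EGLN2 went from 20.1% ± 2.96 to 6.45% ± 0.865.

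VHL and HIF1AN, the partners that act after and beside the prolyl hydroxylases, were not called. VHL, on chromosome 3 from 10141008 to 10152220 (plus strand), had 63.1, 63.1 and 64.8 CPM in control against 70.1 and 69.0 CPM in co-cultured libraries. HIF1AN, on chromosome 10 from 100529072 to 100559998 (plus strand), had 136, 144 and 134 CPM in control against 150 and 154 CPM in co-cultured libraries. For both genes the co-cultured libraries lay just above the control libraries. The log2 fold changes were 0.13 (adjusted p = 0.215) and 0.14 (adjusted p = 0.185), and the upper ends of the intervals were 1.23-fold and 1.24-fold. After upper-quartile normalization they were 0.05 and 0.06. Over all 10 genes, 7 did not overlap in the higher and 1 in the lower direction, against 29.4% and 30.0% of all genes tested, or 8 against 59.4% in either direction.

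Levels were compared between genes only per length, as CPM per kilobase of exon bases not shared with another gene on the same strand. In control cells HIF1A was the highest, at 29.6 ± 1.61 CPM per kb (SD, n = 3), and EPAS1 the lowest by mean, at 2.37 ± 0.081. The control range of HIF3A, 1.73 to 4.59 CPM per kb, spanned that of EPAS1, 2.31 to 2.46. VHL (15.1) and ARNT (13.5) came next after HIF1A, then HIF1AN (9.90), ARNT2 (8.52) and EGLN1 (8.12), whose ranges overlapped from each to the next, and then EGLN3 (4.65), HIF3A (3.53) and EGLN2 (3.18), which likewise overlapped from each to the next. In co-cultured cells HIF1A reached 62.8 ± 0.941 CPM per kb (SD, n = 2), and EGLN1 (23.0 ± 3.89) and EGLN3 (22.4 ± 7.53) moved to the second and the third place with overlapping ranges. VHL (16.5), ARNT (11.0), HIF1AN (10.9) and ARNT2 (9.36) followed, the ranges of ARNT and HIF1AN overlapping, then EPAS1 (6.61) and HIF3A (5.85) with overlapping ranges, and EGLN2 (3.08) was the lowest. Annotated exon length stands in for the length of the transcripts made, and for EGLN2 the shared exons make the level uncertain.

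**Figure D3:**
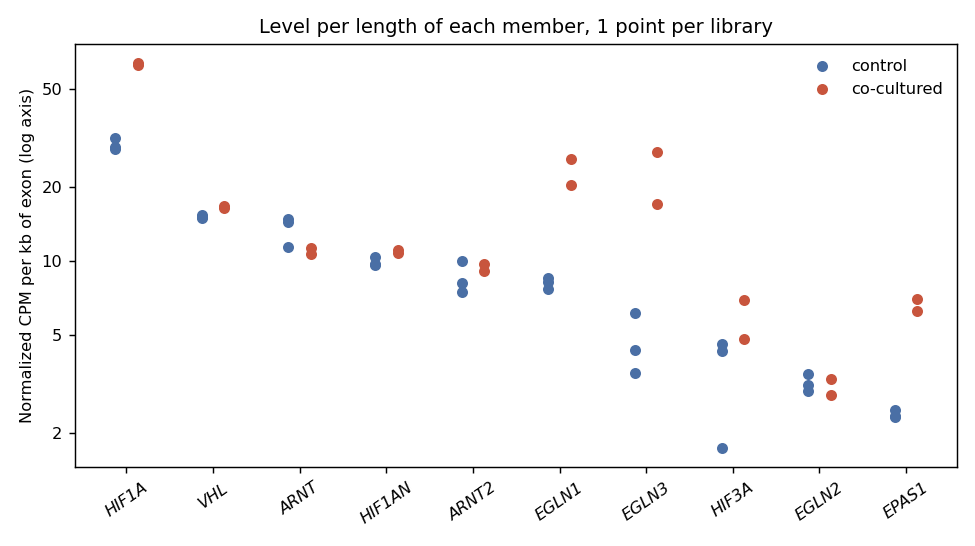
Level of each gene as CPM per kilobase of its own exon bases (y axis, log scale), 1 point per library, with genes ordered by their control mean. In co-cultured libraries EGLN1 and EGLN3 passed VHL, ARNT, HIF1AN and ARNT2, while HIF1A stayed highest.

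The other genes of the pathway were taken from lists written from general knowledge, but with earlier results of these data known. Of 47 HIF target genes 42 were tested, and 34 were called higher and 0 lower, against 18.4% and 15.0% of all genes. Their median log2 fold change was 1.36, beside -0.03 over all genes and 0.43 over the 10 members. At the DEG criterion 28 were higher. The 3 with the smallest p were VEGFA, the vascular growth factor (log2 fold change 1.59), DDIT4, an inhibitor of mTOR signaling (2.30), and PGK1, a glycolytic enzyme (1.58). EPO, SLC2A3 and MIR210HG had at most 2 counts in every library. Among 6 partners of VHL, 5 were tested and 2 called higher, with none lower. They were CUL2, the scaffold of the VHL ubiquitin ligase (0.42), and VBP1, a prefoldin subunit that binds VHL and is no part of the ligase (0.36). Without co-cultured replicate 2 the count was 0, and without control replicate 1 it was 5.

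Of 17 coactivators and stability regulators of HIF, 4 were called higher and 3 lower, against 18.4% and 15.0% of all genes tested. Their median change was -0.06 on the log2 scale. CITED2, which competes with HIF1A for its coactivators and is itself a hypoxia-induced gene, rose by 1.99 on the log2 scale, its mean CPM being 6.46 ± 1.19 (SD, n = 3) in control against 25.7 ± 6.17 (SD, n = 2) after co-culture. SIAH2, a ubiquitin ligase that targets prolyl hydroxylases, rose by 0.81 and the coactivator NCOA1 by 0.56. ING4, described as a partner of EGLN1 that restrains HIF, fell by 1.15 on the log2 scale, and HSP90AB1 and RACK1, a stabilizing chaperone and a protein linked to degradation of HIF1A, fell by 0.43 and by 0.45. The coactivators EP300 and CREBBP were not called (0.23 and -0.09). After upper-quartile normalization 6 of this list were called lower, and without co-cultured replicate 1 or 2 it was 1.

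Of 11 further genes of the bHLH-PAS family, to which the HIF subunits belong, 9 were tested, 4 called higher and 2 lower, with a median of 0.19. The shares of all genes tested, to be set beside this list and those that follow, were 18.4% higher and 15.0% lower. AHR, the dioxin receptor, which also pairs with ARNT, rose by 1.81 on the log2 scale, its mean CPM being 14.9 ± 0.830 (SD, n = 3) in control against 52.4 ± 5.94 (SD, n = 2) after co-culture, while its repressor AHRR fell by 0.66. The clock genes NPAS2 and ARNTL rose by 1.44 and 0.71, and NPAS3 fell by 0.55. Of 12 other oxygen-dependent hydroxylases and dioxygenases, 4 were called higher and 1 lower, with a median of 0.05. JMJD6 rose by 0.98, the thiol dioxygenase ADO by 0.59 and ASPH by 0.54, and P4HTM, a membrane-bound prolyl hydroxylase that can act on HIF, fell by 0.55. Of the neuroendocrine markers 4 were called higher, among them SYP (0.57) and SCG2 (0.86), and 1 lower, DLL3 (-0.35), with a median of 0.14.

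**Figure D4:**
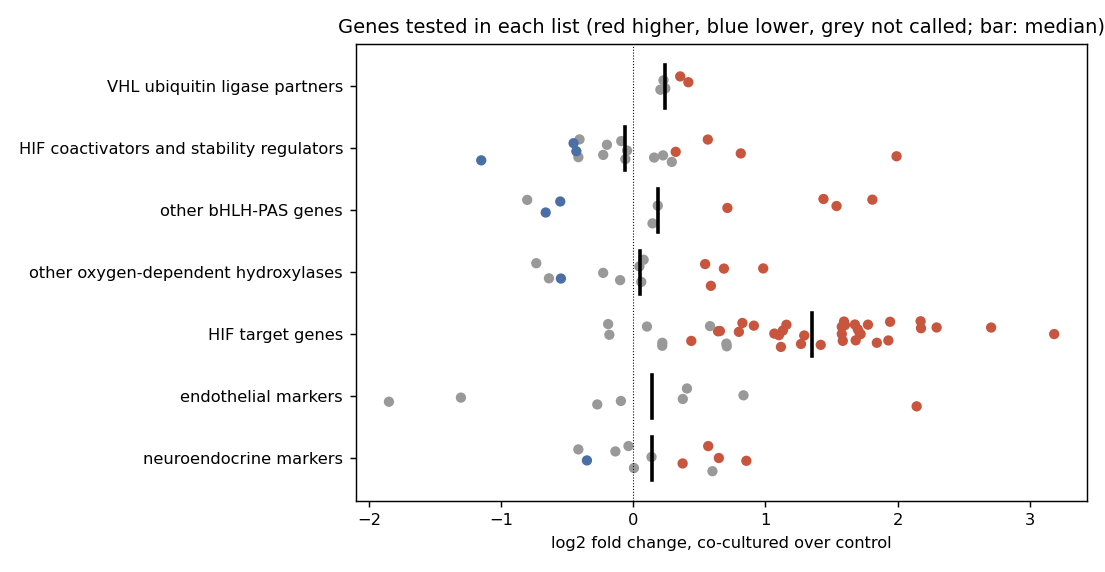
Log2 fold change (x axis) of each tested gene of 7 lists (y axis), with the list median as a bar; ANGPTL4, with 0 counts in every control library, is not drawn. HIF target genes lay mostly above 0, the 5 tested VHL partners lay above 0 by 0.21 to 0.42, and the other lists held genes on both sides of 0.

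The libraries of a group were not ordered alike for all 10 genes. EGLN1 and EGLN3 shared an order of CPM, with control replicate 1 below 2 and 2 below 3, and co-cultured replicate 1 above 2. Of the 34 HIF target genes called higher, 27 (79.4%) had this same order within both groups, beside 411 of the 3750 genes called higher in all (11.0%). The order of HIF1A was shared by 1 of the 34 targets and by 14.4% of all genes called higher, and that of EPAS1 by 4 of the 34 and by 5.57%. VEGFA, at 199, 220 and 245 CPM in control against 721 and 608 CPM in co-cultured libraries, is an example of the order of EGLN3. VHL had the order of EGLN3 too, but its libraries differed by little. This comparison was chosen after the values had been seen, target genes are not independent of each other, and it was not tested.

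**Figure D5:**
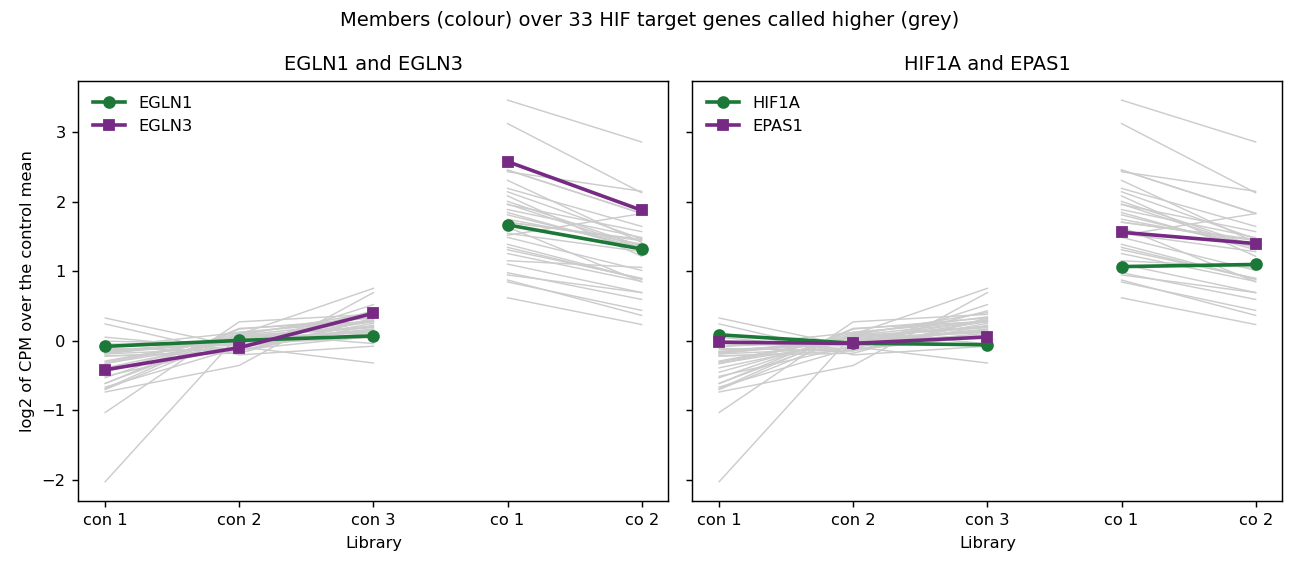
Log2 of CPM over the control mean (y axis) in each library (x axis) for EGLN1 and EGLN3 (left) and HIF1A and EPAS1 (right), over 33 HIF target genes called higher (grey). Lines join the values of a gene within a group and stand for no time or dose; most grey lines run with EGLN1 and EGLN3, and HIF1A is flat within both groups.

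The genes whose pattern over the 5 libraries was most like that of a member were found by the root mean square difference of log2 CPM, each taken relative to its control mean, among 10584 genes with at least 10 CPM on average. For HIF1A they were SLC41A2 (0.031), MID2 (0.034) and APBB2 (0.037). For EPAS1 they were NXPH4 (0.028), PGM1 (0.035) and GCHFR (0.047), and for EGLN1 THY1 (0.041), NXPH4 (0.054) and GCHFR (0.060). EGLN3 had no neighbour as close, and its nearest genes were FOSL2 (0.11), the glucose transporter SLC2A1 (0.14) and LBH (0.14).

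Promoter windows of RefSeq (GRCh38.p14), from 250 bases before to 50 after each start, were available for 8 of the 10 genes and were searched on both strands for ACGTG and GCGTG, the core of the hypoxia response element to which HIF binds. ACGTG overlaps the E-box CACGTG. Pieces around the matches are shown for the genes that rose, with the match in capitals and its distance from the start.
HIF1A, chr14:61695297-61695325, plus strand, -204: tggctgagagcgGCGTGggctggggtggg
EPAS1, chr2:46297278-46297306, plus strand, -117: gggcctgccggcGCGTGcccgcccacaca
EGLN1, chr1:231422284-231422312, minus strand, -13: gggccgtggtgtACGTGcagagcgcgcag
For EGLN1 all 250 bases before the start used lie in annotated exons, against 0 for this HIF1A window and 5 for EPAS1. The annotated span of EGLN1, on the minus strand, begins further upstream, at 231425044. The annotated spans of EGLN3, EPAS1 and HIF1AN also begin upstream of the windows used. EGLN3, on the minus strand, begins at 34462774 and its window at 33951324. EPAS1 begins at 46293667 and its window at 46297157, and HIF1AN at 100529072 and its window at 100535693. Whether the windows of these genes and of EGLN1 hold an active promoter was not tested. The window of EGLN3, the gene with the largest change, held no match. Among genes that were not called, HIF3A held 3 matches and EGLN2 held 2, which overlap in CACGTG, and ARNT and HIF1AN held none. Some genes had more than 1 window, and of the 12 windows of members 5 (41.7%) held a match. Such a match is common, since 48.5% of all 35116 windows held at least 1, and it says nothing on whether HIF was bound.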

How the data were processed

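RNA of NCI-H209 cells was sequenced from rRNA-depleted, directional libraries. Per the labels, reads were aligned to GRCh38 with STAR 2.6.1b, and the authors deposited raw counts per gene without normalization, in columns without regard to strand and for each strand. The strand of the directional kit was used, which held 92.3% to 93.1% of stranded counts. The authors also deposited a DESeq2 comparison. The signal values deposited in it, the authors' group means of normalized counts, equal these counts over median-ratio size factors and served only for that check. The table also gave gene names. Its fold changes and p-values were not used.

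Names were matched to GENCODE release 29, which holds 58780 of the entries, and exon lengths are unions of its exons. Genes were filtered with filterByExpr and normalized by TMM in edgeR 4.0.16 (R 4.3.3), and groups were compared with the quasi-likelihood test. Standard errors are the log2 fold change over the square root of F, and intervals use the t distribution. CPM uses TMM library sizes. The floor was 3 counts. Steps were tested on simulated data. Members and lists were chosen with earlier results of these data known. Named genes are all members, up to 3 called genes of each list and direction by p, every antisense or readthrough partner with counts, the 3 most abundant genes of each marker list and the 3 nearest genes by pattern (log2 CPM with a prior count of 2), and others were named after their values were seen. Alternatives were DESeq2 1.42.0, other normalizations and filters, a replicate block, each library left out, and unstranded counts.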

Additional observations from a re-analysis of the deposited data

Results flagged for a closer look

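Reads on the strand opposite HIF1AN, which the comparisons did not use, made up a larger share of the reads of this locus in both co-cultured libraries than in any control library. The share was 17.2%, 12.4% and 13.1% in control against 18.8% and 18.3% in co-cultured libraries, from 371 to 634 reads. The annotation places NDUFB8 and AL133352.1 on that strand, overlapping the span of HIF1AN, and the gene these reads came from was not tested. The counts of HIF1AN without regard to strand, 2339 to 2742, differed by at most 2 from those of its own strand, so these reads did not enter either of them.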

How the results depend on the processing

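HIF1A, EPAS1, EGLN1 and EGLN3 kept their direction and their call under all 12 alternatives. Their largest adjusted p there was 0.00230, 0.00190, 0.00136 and 0.00471. Members called lower numbered 1, ARNT, after upper-quartile normalization, when genes needed only 1 count in some library, and without control replicate 1, and 0 to 1 over the fits that left out a library. Over all genes, leaving out each library moved the number called higher from 1749 to 5295 and the number called lower from 985 to 4602. The log2 fold change of EGLN2, not called, reversed to 0.0128 with unstranded counts and ran from -0.157 to 0.0643 with libraries left out, above 0 without control replicate 2 (0.0248) and without co-cultured replicate 2. HIF3A was also called with the looser filter, at the same log2 fold change as in the main fit (0.73). That filter lowered p-values at unchanged estimates for other members too. For EGLN3, at 2.27 in both fits, edgeR's adjusted p went from 0.000208 to 7.16e-107. Among lists, coactivators and stability regulators called lower numbered 6 after upper-quartile normalization and 1 to 4 with libraries left out, bHLH-PAS genes called lower 1 with unstranded counts and 1 to 2 with libraries left out, other hydroxylases called lower 0 to 1, and VHL partners called higher 0 to 5. HIF targets called higher ran from 25 to 37.

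The deviations of same-numbered libraries from the group means correlated at -0.11 and -0.07. With 2 co-cultured libraries these deviations mirror each other, so the correlations cannot show whether same-numbered libraries were paired. With the replicate block 2771 genes were called higher and 2053 lower, and HIF3A was called at 1.005 (adjusted p = 0.00387). A fit with 1 co-cultured library assumes that it varies like the controls. The causes were not tested.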

Other observations

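The antisense gene HIF1A-AS2 has exons on the strand opposite HIF1A, and reads on the HIF1A strand over those exons give a count that does not come from HIF1A exons, since counting without regard to strand assigned the same number to HIF1A-AS2. These reads numbered 54, 73 and 76 in control against 53 and 43 in co-cultured libraries, or 2.87, 4.04 and 3.89 CPM and 2.90 and 2.84 CPM. Over the exons of HIF1A-AS1, where they coincide with exons of HIF1A, reads on the HIF1A strand numbered 249, 207 and 266 in control against 585 and 489 in co-cultured libraries. The first set overlapped between the groups and the second did not, and neither was tested.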
